A study of Mus musculus with 6 samples.

Results

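The solute carrier family 25 (SLC25) encodes the transporters that move metabolites, nucleotides, cofactors and ions across the inner mitochondrial membrane. Its mouse genes were found by name in the deposited hippocampal expression table: every gene named Slc25a followed by digits alone was taken as a member, and 47 of the 32201 genes listed met this rule. Members were chosen by name and not by their expression. The members and the gene lists set beside them below were, however, chosen with earlier results of these data known. Of the 47, 37 had a mean of at least 1 FPKM (fragments scaled to transcript length and to library size) and were tested, and 10 lay below that level. Both groups were hippocampi of male C57BL/6N mice, an inbred strain, aged 8 weeks, that had gone through chronic unpredictable mild stress, in which varied mild stressors are applied to model depression in rodents. The 3 baicalin libraries came from stressed mice given baicalin, a flavone glucuronide of Scutellaria root, at 20 mg/kg. The 3 saline libraries came from stressed mice given saline. An unstressed group named in the labels was not analysed here, so both groups share the stress. The labels do not say whether each library is a separate animal, so a p-value here speaks of the spread among libraries only.

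SLC25 carriers are built from repeats of a common module of membrane helices and mostly work as exchangers, bringing one substrate in as another leaves. They are made in the cytosol and inserted into the inner membrane by the TIM22 translocase. In brain, the ADP/ATP and phosphate carriers supply oxidative phosphorylation, the aspartate/glutamate and oxoglutarate carriers form the malate-aspartate shuttle that brings reducing equivalents from cytosolic NADH into the matrix, and calcium-regulated carriers adjust the matrix pool of adenine nucleotides.

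Each baicalin library held 61303274 to 64983755 counts and each saline library 65989141 to 67957752. The members took 0.287, 0.291 and 0.289% of counts with baicalin and 0.282, 0.294 and 0.285% with saline. The share of the mitochondrial genome was 7.71 to 8.69% in baicalin libraries and 7.18 to 7.82% in saline libraries. All 7 hippocampal markers checked were detected, and their summed level was 227 to 280.2 FPKM with baicalin and 283 to 309 FPKM with saline. Of these markers 3 (Zbtb20, Fibcd1 and Neurod6) were lower with baicalin at an unadjusted p under 0.05, as were 5.46% of all genes tested. Among the other hippocampal markers, Wfs1 and Spink8 were lower and Prox1 and Bok higher, all without such a p. Dentate granule markers summed to 46.5 to 50.4 FPKM with baicalin and 27.9 to 49.2 FPKM with saline, and choroid plexus markers summed to 19.5 to 64.8 FPKM with baicalin and 11.1 to 37.7 FPKM with saline. Neuronal, astrocyte, oligodendrocyte, microglial, endothelial, meningeal and blood marker sums overlapped between the groups, and no list had a marker at 0 in all 6 libraries. Single markers in these lists also had an unadjusted p under 0.05. The neuronal marker Slc17a7 was lower with baicalin, and the astrocyte marker Gjb6 and the dentate granule marker Tdo2 were higher. The neuronal and astrocyte lists were mixed in direction. Without such a p, neuronal Gad2 and Syt1 were lower and Rbfox3, Gad1 and Snap25 higher. Likewise astrocyte Gja1 and Aqp4 were lower and Gfap, Aldh1l1 and Slc1a3 slightly higher. The part of these markers in the carriers' values was not tested, and in whole tissue fewer cells of a type and less RNA per cell cannot be told apart.

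Per unit of length, the family was dominated by carriers of energy metabolism. Its summed level was 766 ± 5.01 FPKM with baicalin and 756 ± 14.4 FPKM with saline (SD, n = 3 each). The 4 most abundant members, Slc25a4, Slc25a5, Slc25a23 and Slc25a3, made up 59.2 to 60.0% of it in the 6 libraries. Slc25a4, an ADP/ATP carrier, averaged 213 ± 5.66 FPKM with baicalin and 205 ± 3.57 FPKM with saline. That placed it above 99.1% of the genes tested. Slc25a5, a second ADP/ATP carrier, averaged 122 ± 0.996 FPKM with baicalin and 122 ± 2.92 FPKM with saline. Next came Slc25a23, a calcium-regulated ATP-Mg/phosphate carrier, with 70.4 ± 2.98 FPKM with baicalin and 72.0 ± 0.347 FPKM with saline. Slc25a3, the phosphate carrier, averaged 53.0 ± 1.12 FPKM with baicalin and 51.1 ± 2.62 FPKM with saline. Slc25a11, the oxoglutarate carrier, came after them with 41.5 ± 1.74 FPKM with baicalin and 41.6 ± 2.81 FPKM with saline. These 5 kept the same order in every library, with no overlap between neighbours, whereas Slc25a18 (21.2 FPKM over all libraries) and Slc25a12 (21.0 FPKM) in the next places overlapped. Of the 37 tested members 4 lay above 50 FPKM, 12 between 10 and 50 FPKM and 21 between 1 and 10 FPKM.

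**Figure D1:**
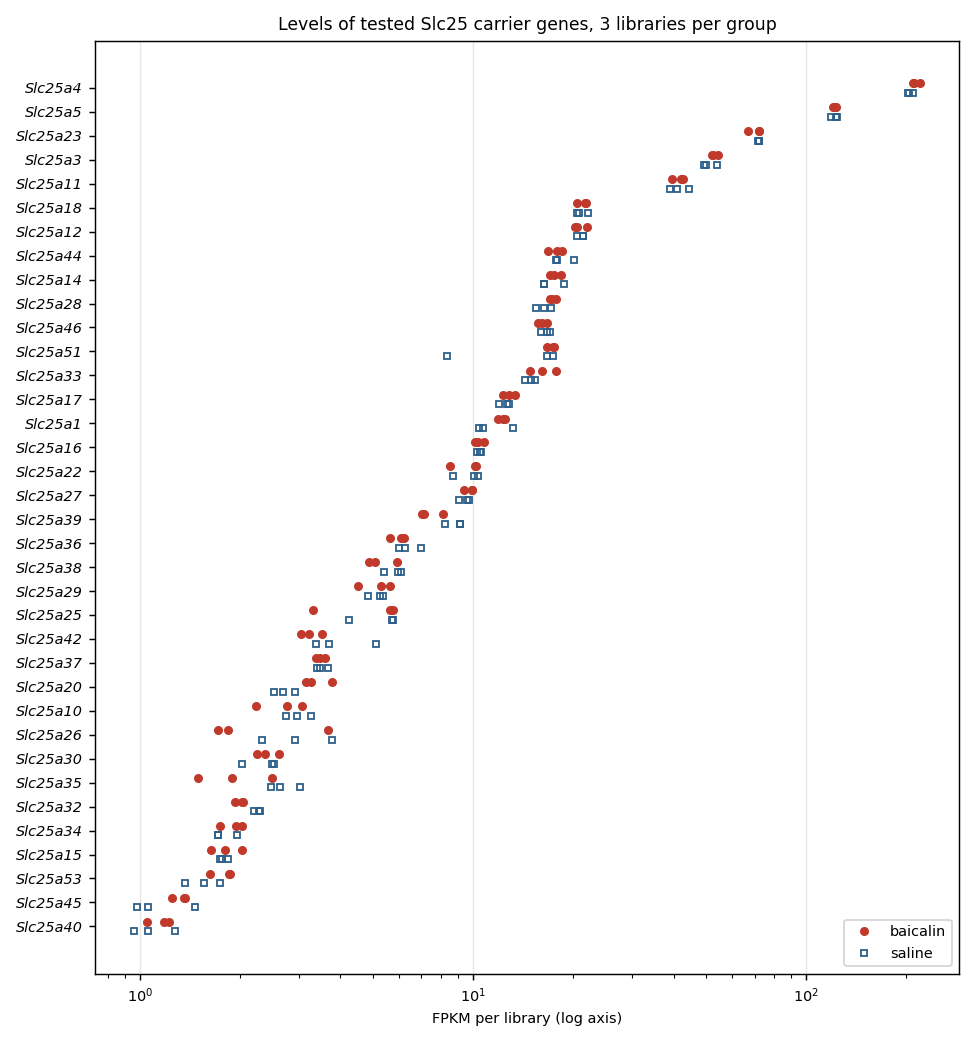
Level of 36 of the 37 tested members in FPKM (log axis), one mark per library, baicalin as filled circles above saline as open squares, ordered by mean level. Levels run from about 1 FPKM for Slc25a40 to 209 FPKM for Slc25a4, and for most members the marks of the groups overlap; 1 saline library of Slc25a51 lies far below the others.

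The comparison asks whether any of these carriers differed between stressed mice with and without baicalin, a compound the study's title calls an antidepressant. No member passed the adjusted threshold. With edgeR's quasi-likelihood test and Benjamini-Hochberg adjustment over 13153 genes, 0 of 37 members had an adjusted p under 0.05, against 0.0456% of all genes tested, and the smallest adjusted p of a member was 0.353. At an unadjusted p under 0.05, 3 of 37 members were found: 1 higher with baicalin (Slc25a20) and 2 lower (Slc25a39 and Slc25a35). Over all genes this count came to 11.8%, made up of 6.34% higher and 5.46% lower. With libraries scaled to equal summed FPKM, 0 members were higher and 3 lower (Slc25a39, Slc25a35 and Slc25a32), beside 334 higher and 1553 lower genes in all, against 834 higher and 718 lower with the TMM scaling used here. In 3 of 37 members the groups did not overlap (Slc25a20 higher, Slc25a39 and Slc25a32 lower), against 19.4% of all genes tested (9.93% higher and 9.52% lower). The DESeq2 alternative, which called 218 genes in all, likewise called 0 members.

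Log2 differences (baicalin minus saline) were centred close to 0 and small. The median over the 37 members was 0.0084 and over all genes -0.00062. Of the members 22 were positive and 15 negative, beside 49.8% positive and 50.2% negative among all genes. With libraries scaled to equal summed FPKM, 10 members were positive and 27 negative. That scaling moved all genes down, with a median of -0.078 beside -0.072 for members. The median size of the difference, regardless of sign, was 0.076 for members and 0.096 for all genes. For 30 members the whole 95% interval lay within 0.5 of 0, and for 16 within 0.25. Estimates this small moved with single libraries: leaving out 1 library changed the sign in 13 members, all with an estimate within 0.1 of 0, and changed the sign or moved the estimate by over 1.5 times in 33. The estimate was at least 0.3 from 0 in 4 members: Slc25a35, Slc25a20, Slc25a42 and Slc25a26.

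**Figure D2:**
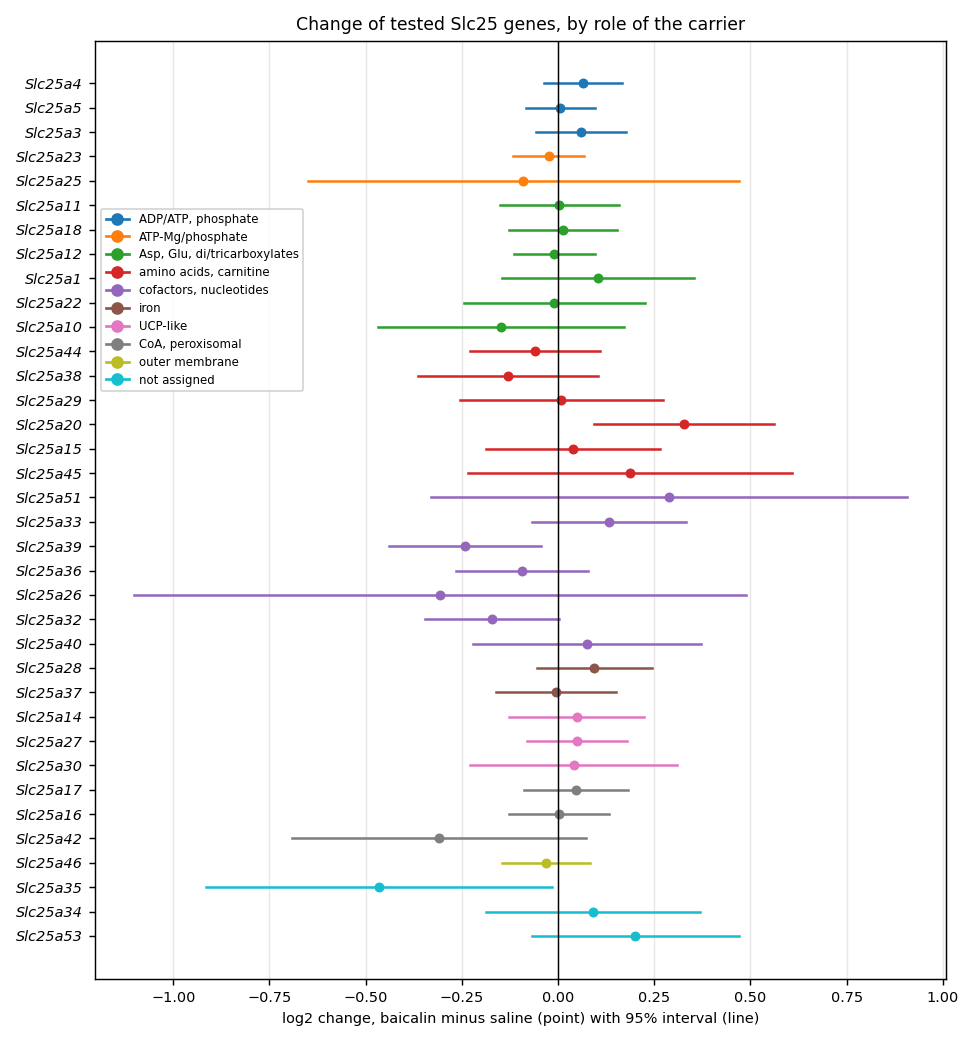
Log2 difference of 36 of the 37 tested members (baicalin minus saline, points) with its 95% interval (lines), coloured and ordered by the carrier's role. The intervals of 33 of the 36 members drawn include 0; those of Slc25a20, Slc25a39 and Slc25a35 do not, and the widest belong to Slc25a26 and Slc25a51.

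The ADP/ATP and phosphate carriers bring ADP and phosphate to ATP synthase and export the ATP it makes. Levels within a gene are given in CPM (counts scaled to library size, here by TMM), and ± beside a log2 difference is its standard error (SE). Slc25a4 had 567, 557 and 598 CPM in the baicalin libraries, against 540.2, 562 and 544 CPM in the saline libraries. Its groups overlapped, the highest library being a baicalin one, and its log2 difference was 0.066 ± 0.042 (SE), with a 95% interval of -0.035 to 0.17. Slc25a5 had 227, 228 and 232 CPM in the baicalin libraries, against 221, 233 and 229 CPM in the saline libraries, and its log2 difference was 0.0057 ± 0.038 (SE), with a 95% interval of -0.084 to 0.10. This was the steadiest member, with a coefficient of variation within groups of 2.06%. Slc25a3 had 331, 341 and 337 CPM in the baicalin libraries, against 311, 343 and 314 CPM in the saline libraries. The saline library at 343 CPM exceeded all 3 baicalin libraries, and the log2 difference was 0.059 ± 0.049 (SE), with a 95% interval of -0.057 to 0.18. All 3 estimates were positive and none passed the test. With libraries scaled to equal summed FPKM all 3 were negative, and the median of all genes was -0.078.

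Slc25a4 (mm10, chr8:46206797-46211284, minus strand, 4 merged exons) and Slc25a5 (chrX:36795651-36798807, plus strand, 3 merged exons) encode close paralogs, so their reads could be mixed if they were alike over a read's length. The first 90 coding bases of each, from the GENCODE transcripts, are shown to make their distance visible, with the 24 bases that differ in capitals.
Slc25a4: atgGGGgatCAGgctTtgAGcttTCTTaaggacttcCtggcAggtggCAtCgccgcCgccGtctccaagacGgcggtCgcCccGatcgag
Slc25a5: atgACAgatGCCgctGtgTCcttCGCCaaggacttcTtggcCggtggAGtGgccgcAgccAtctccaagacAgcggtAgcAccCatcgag
Over their coding sequences of 897 bases each, 77.5% of bases were identical and the longest identical run was 20 bases. No stretch of 50 bases in Slc25a4 transcripts occurred in another gene's transcripts. In Slc25a5, 33.8% of such stretches also occurred in 9 other genes, among them the processed pseudogenes Gm5560 and Gm5529. Those had mean counts of 14.0 and 11.5 per library, beside 14899 for Slc25a5.

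The ATP-Mg/phosphate carriers load and unload the matrix pool of adenine nucleotides in response to cytosolic calcium. Slc25a23 had 437, 431 and 409.9 CPM in the baicalin libraries, against 430.1, 437 and 434 CPM in the saline libraries. Its lowest library was a baicalin one and the groups overlapped, and its log2 difference was -0.025 ± 0.039 (SE), with a 95% interval of -0.12 to 0.069. Slc25a25 had 50.6, 29.5 and 52.3 CPM in the baicalin libraries, against 51.0, 51.8 and 38.1 CPM in the saline libraries. One library of each group was well below the other two of that group, and the log2 difference was -0.090 ± 0.23 (SE), with a 95% interval of -0.65 to 0.47. Without baicalin library 2 the estimate was 0.13, and without baicalin library 3 it was -0.23.

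The aspartate, glutamate and dicarboxylate carriers link the cytosolic and matrix pools of the malate-aspartate shuttle and of the citric acid cycle. Slc25a12, the calcium-regulated aspartate/glutamate carrier of neurons, had 169.6, 183 and 174 CPM in the baicalin libraries, against 172, 179 and 179 CPM in the saline libraries. Slc25a11, its oxoglutarate/malate partner in the shuttle, had 95.6, 103 and 103 CPM in the baicalin libraries, against 98.7, 108 and 94.1 CPM in the saline libraries. In both the groups overlapped, and the log2 differences were -0.0094 ± 0.044 for Slc25a12 and 0.0035 ± 0.065 for Slc25a11. Slc25a18, a glutamate carrier, had 44.6, 47.1 and 47.8 CPM in the baicalin libraries, against 48.2, 45.5 and 44.6 CPM in the saline libraries. Slc25a22, its paralog, had 58.7, 69.4 and 70.3 CPM in the baicalin libraries, against 70.8, 69.2 and 59.6 CPM in the saline libraries. Their log2 differences were 0.013 ± 0.059 for Slc25a18 and -0.0093 ± 0.10 for Slc25a22, again with overlapping groups. Slc25a1, the citrate carrier, and Slc25a10, the dicarboxylate carrier, had log2 differences of 0.10 ± 0.10 for Slc25a1 and -0.15 ± 0.13 for Slc25a10. With a library left out, Slc25a1 gave 0.038 (without saline 3) to 0.22 (without saline 2, its 1 alternative with an unadjusted p under 0.05). Slc25a10 gave -0.25 (without baicalin 2) to -0.038 (without baicalin 3). None of the 6 tested members of this group had an unadjusted p under 0.05, 3 estimates were positive and 3 negative.

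Carriers of amino acids and of acylcarnitine included the member with the smallest p. Slc25a20 encodes the carnitine/acylcarnitine carrier, which brings long-chain acyl groups into the matrix for beta-oxidation. It had 17.5, 20.7 and 18.3 CPM in the baicalin libraries, against 14.9, 14.0 and 16.1 CPM in the saline libraries. Every baicalin library exceeded every saline library, the lowest baicalin library lying above the highest saline library. The log2 difference was 0.33 ± 0.10 (SE), with a 95% interval of 0.095 to 0.56, an estimated 1.26-fold level with an interval of 1.07 to 1.48. Its unadjusted p was 0.0131 and its adjusted p in edgeR was 0.353, so it did not pass. Leaving out each library in turn gave 0.26 to 0.38, and scaling to equal summed FPKM gave 0.25. Slc25a20 is a gene of modest level, at 3.06 FPKM over all libraries, and 6.2% of the 50-base stretches in its transcripts also occurred in transcripts of other genes.

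Slc25a20 lies at chr9:108662088-108684641 (mm10, plus strand, 9 merged exons). The sequence before its first exon is shown because it is the member with the smallest p, and that of Slc25a3, an abundant member with the same motif, is shown beside it (RefSeq promoter windows, GRCm38.p6, trimmed to bases outside annotated exons). Slc25a20 is given at chr9:108661886-108662087 on the plus strand and Slc25a3 at chr10:91124060-91124217 on the minus strand. Capitals mark matches to CCGGAAG, the core bound by ETS factors such as GABP, and in Slc25a3 also a match to the core bound by NRF1, read on the opposite strand.
Slc25a20: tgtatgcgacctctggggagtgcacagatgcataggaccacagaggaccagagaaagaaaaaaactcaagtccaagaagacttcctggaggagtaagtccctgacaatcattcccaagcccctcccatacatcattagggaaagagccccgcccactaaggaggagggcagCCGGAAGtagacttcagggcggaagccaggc
Slc25a3: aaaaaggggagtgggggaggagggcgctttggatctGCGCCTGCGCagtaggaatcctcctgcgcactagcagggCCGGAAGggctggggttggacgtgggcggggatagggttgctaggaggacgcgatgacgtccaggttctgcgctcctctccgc
The ETS core began 79 bases before the RefSeq start of Slc25a20 and 175 bases before that of Slc25a3, and the NRF1 core 214 bases before that of Slc25a3. Windows of 250 bases before the start were available for 36 of the 47 members and were searched on both strands. The ETS core was in 6 of 36 members (16.7%), namely Slc25a3, Slc25a4, Slc25a17, Slc25a20, Slc25a38 and Slc25a54, and in 7.83% of the 27025 genes with a window. The NRF1 core was in 2 of 36 (5.56%) and 4.23% of all, and the cyclic AMP response element TGACGTCA in 2 of 36 (5.56%, Slc25a25 and Slc25a36) and 1.77% of all. Among the 5 tested members with the ETS core, log2 differences were 0.33 for Slc25a20, 0.066 for Slc25a4, 0.059 for Slc25a3, 0.047 for Slc25a17 and -0.13 for Slc25a38. These matches describe the sequence, not binding.

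Of the other amino acid carriers, Slc25a44, which takes branched-chain amino acids into mitochondria, had 75.7, 67.9 and 73.9 CPM in the baicalin libraries, against 81.5, 73.2 and 72.1 CPM in the saline libraries. Its groups overlapped and the log2 difference was -0.060 ± 0.071. Log2 differences were -0.13 ± 0.10 for Slc25a38, the glycine carrier needed for haem synthesis, 0.0084 ± 0.11 for Slc25a29, a carrier of basic amino acids, 0.039 ± 0.095 for Slc25a15, the ornithine carrier of the urea cycle, and 0.19 ± 0.18 for Slc25a45. Slc25a45 was close to the lower limit for testing, at 1.25 FPKM.

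Carriers of cofactors and nucleotides held the second smallest p and also the widest intervals. Slc25a39 (chr11:102402985-102407544, minus strand) encodes a mitochondrial glutathione importer. It had 22.5, 25.5 and 22.6 CPM in the baicalin libraries, against 28.7, 28.9 and 25.8 CPM in the saline libraries. All 3 baicalin libraries lay below the saline libraries, though the highest baicalin and the lowest saline library were close. Its log2 difference came to -0.24 ± 0.083 (SE), with a 95% interval of -0.44 to -0.045. It had an unadjusted p of 0.0233 and an adjusted p in edgeR of 0.382. Its paralog Slc25a40 had 11.8, 11.2 and 10.3 CPM in the baicalin libraries, against 9.23, 10.2 and 12.2 CPM in the saline libraries, with overlapping groups and a log2 difference of 0.076 ± 0.12. Slc25a32 (chr15:39091231-39112716, minus strand), which carries folate or FAD, had 13.4, 14.0 and 14.4 CPM in the baicalin libraries, against 15.3, 16.0 and 15.8 CPM in the saline libraries. Here too all baicalin libraries were below all saline libraries, and the spread within each group was small. For Slc25a32 the log2 difference was -0.17 ± 0.073 (SE), with a 95% interval of -0.34 to 0.0036. The unadjusted p was 0.0536, with an adjusted p in edgeR of 0.432.

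The pyrimidine nucleotide carrier Slc25a33 had 31.9, 34.5 and 38.6 CPM in the baicalin libraries, against 30.7, 32.2 and 33.0 CPM in the saline libraries. Its paralog Slc25a36 had 68.2, 66.0 and 62.8 CPM in the baicalin libraries, against 68.0, 65.9 and 76.3 CPM in the saline libraries. Their log2 differences were of opposite sign, 0.13 ± 0.084 for Slc25a33 and -0.094 ± 0.071 for Slc25a36, and in both the groups overlapped.

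In 2 further cofactor carriers, named after their values were seen, libraries of a group stood far apart. Slc25a51, the NAD carrier, had 110.3, 108 and 106 CPM in the baicalin libraries, against 52.2, 109.5 and 104 CPM in the saline libraries. Saline library 1 alone was low, while the other 5 libraries were close together. The log2 difference was 0.29 ± 0.26 (SE), with a 95% interval of -0.33 to 0.91, and it was 0.019 without saline library 1 and 0.47 without saline library 2. Slc25a26, the S-adenosylmethionine carrier, had 10.1, 9.39 and 20.5 CPM in the baicalin libraries, against 20.6, 16.1 and 12.8 CPM in the saline libraries. The ranges covered each other, with baicalin library 3 near the highest saline library. The log2 difference was -0.31 ± 0.33 (SE), with a 95% interval of -1.10 to 0.49, and it was -0.76 without baicalin library 3 and -0.11 without baicalin library 2. What set these libraries apart was not tested.

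The iron importers of mitochondria, known as mitoferrins, are encoded by Slc25a28 and Slc25a37. Slc25a28 had 29.4, 30.5 and 30.2 CPM in the baicalin libraries, against 29.5, 26.8 and 28.0 CPM in the saline libraries. Slc25a37, the form of erythroid cells, had 24.8, 23.1 and 24.2 CPM in the baicalin libraries, against 25.1, 23.4 and 23.8 CPM in the saline libraries. The groups overlapped in both, with 1 saline library of Slc25a28 just inside the baicalin range. Log2 differences were 0.094 ± 0.063 for Slc25a28 and -0.0049 ± 0.065 for Slc25a37. Of the uncoupling-protein-like carriers, named for their likeness to the proton-leak proteins of brown fat, Slc25a14 had 49.7, 46.8 and 46.6 CPM in the baicalin libraries, against 50.4, 44.1 and 43.9 CPM in the saline libraries. Slc25a30 had 11.7, 13.5 and 12.6 CPM in the baicalin libraries, against 13.0, 10.6 and 13.2 CPM in the saline libraries. In both the groups overlapped. Log2 differences were 0.048 ± 0.073 for Slc25a14, 0.050 ± 0.054 for Slc25a27 and 0.040 ± 0.11 for Slc25a30. All 3 were positive, none with an unadjusted p under 0.05. With libraries scaled to equal summed FPKM all 3 were negative, and the median of all genes was -0.078.

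Slc25a42, the coenzyme A carrier, had 22.1, 23.9 and 21.1 CPM in the baicalin libraries, against 25.2, 35.0 and 23.1 CPM in the saline libraries. Saline library 2 was well above the rest and the groups overlapped. The log2 difference was -0.31 ± 0.16 (SE), with a 95% interval of -0.69 to 0.073, and without saline library 2 it was -0.11. Slc25a17, the peroxisomal member of the family, and Slc25a16 had log2 differences of 0.047 ± 0.057 for Slc25a17 and 0.0015 ± 0.054 for Slc25a16. Slc25a46, which sits in the outer membrane and bears on mitochondrial shape, had a log2 difference of -0.032 ± 0.048.

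Among members given no substrate here, Slc25a35 (chr11:68968131-68972516, plus strand) had 7.93, 10.4 and 6.36 CPM in the baicalin libraries, against 10.3, 12.7 and 11.0 CPM in the saline libraries. The baicalin library at 10.4 CPM just exceeded the lowest saline library, and the other baicalin libraries were lower. For Slc25a35 the log2 difference was -0.47 ± 0.19 (SE), with a 95% interval of -0.91 to -0.017. The unadjusted p was 0.0440, with an adjusted p in edgeR of 0.415. The log2 difference was -0.31 without baicalin library 3, which was the lowest. Its exons overlap those of Rangrf on the opposite strand over 1151 bases (31.3% of the exonic length of Slc25a35), and no source used here says whether reads were counted by strand. Rangrf itself had a log2 difference of -0.042 ± 0.20 (SE). Slc25a53 had 14.9, 16.9 and 17.2 CPM in the baicalin libraries, against 14.2, 12.5 and 15.9 CPM in the saline libraries, overlapping groups and a log2 difference of 0.20 ± 0.11. Slc25a34 had a log2 difference of 0.091 ± 0.12.

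**Figure D3:**
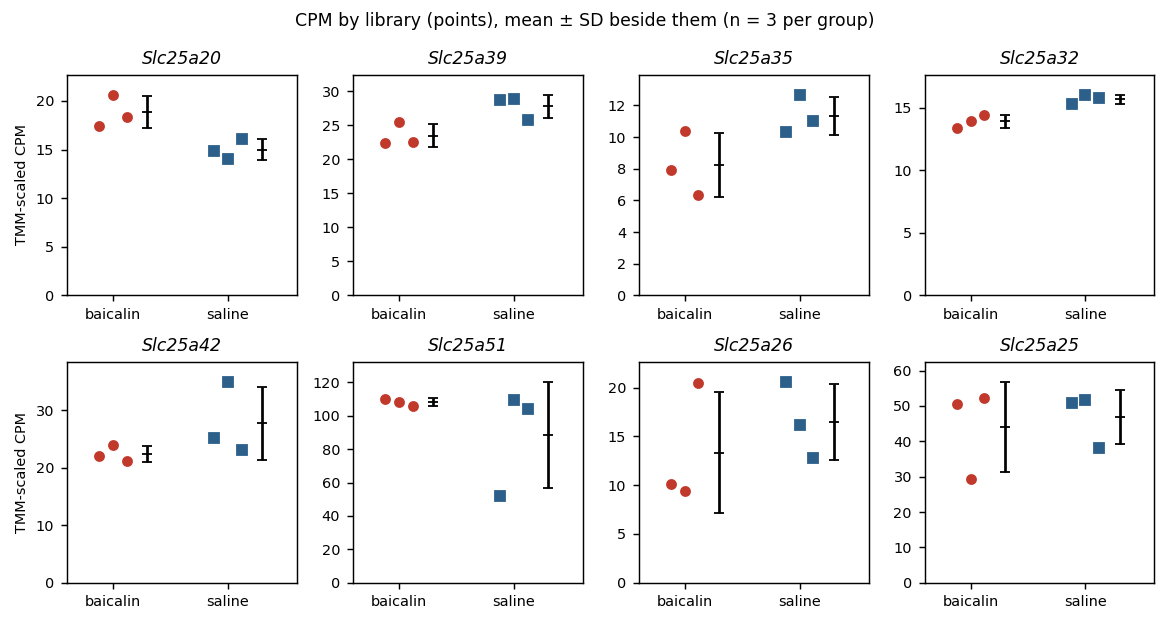
TMM-scaled CPM (axes from 0) of 8 members by library, baicalin as circles left of saline as squares, with the mean and SD (n = 3 per group) beside the points. In Slc25a20, Slc25a39 and Slc25a32 the groups do not overlap; in Slc25a42, Slc25a51, Slc25a26 and Slc25a25 single libraries lie far from the others of their group.

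The 10 members below 1 FPKM were not tested. Slc25a47, a liver carrier, averaged 0.649 ± 0.306 FPKM with baicalin and 0.830 ± 0.0911 FPKM with saline (SD, n = 3 each). Slc25a13, the aspartate/glutamate carrier of liver, averaged 0.675 ± 0.202 FPKM with baicalin and 0.507 ± 0.231 FPKM with saline. Slc25a24, an ATP-Mg/phosphate carrier, averaged 0.553 ± 0.142 FPKM with baicalin and 0.629 ± 0.230 FPKM with saline. The other 7 stayed under 0.2 FPKM in every library: Slc25a2, Slc25a21, Slc25a31 (the ADP/ATP carrier of the male germ line), Slc25a41, Slc25a43, Slc25a48 and Slc25a54. Slc25a54 had 4 counts in baicalin library 1 and 0 in the other 5, a level at the limit of these libraries.

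Ratios between paralogs within a library do not depend on library scaling. They can still depend on a trend with gene length that differs between libraries, which was not removed from them. With such a trend removed, the log2 difference of Slc25a28 was 0.016, beside 0.094 in the fit reported. Slc25a4 over Slc25a5 was 1.75, 1.71 and 1.80 with baicalin and 1.71, 1.68 and 1.66 with saline. Slc25a28 over Slc25a37 was 4.71, 5.25 and 4.97 with baicalin and 4.69, 4.56 and 4.68 with saline. In both pairs every baicalin ratio lay above every saline ratio, the mean log2 ratio differing by 0.059 for Slc25a4 over Slc25a5 and by 0.10 for Slc25a28 over Slc25a37, each with an exact two-sided permutation p of 0.1. That is the smallest p that 3 libraries against 3 allow, and adjusted over the 8 pairs compared it came to 0.4. Slc25a39 over Slc25a40 was 5.81, 6.90 and 6.69 with baicalin and 9.50, 8.66 and 6.47 with saline, with overlapping groups (exact permutation p of 0.3). Slc25a33 over Slc25a36 was 2.38, 2.66 and 3.13 with baicalin and 2.30, 2.49 and 2.20 with saline, where only 1 saline ratio reached the baicalin range (exact permutation p of 0.2). Slc25a12 exceeded Slc25a13 in every library, by ratios of 41.6, 24.7 and 31.4 with baicalin and 51.1, 27.7 and 61.8 with saline, over a low denominator (exact permutation p of 0.3). Slc25a23 over Slc25a25 was 12.8, 21.8 and 11.7 with baicalin and 12.5, 12.5 and 17.0 with saline. The ratio of Slc25a22 to Slc25a18 was 0.418, 0.469 and 0.468 with baicalin and 0.468, 0.483 and 0.425 with saline. For Slc25a14 over Slc25a30 it was 8.20, 6.68 and 7.19 with baicalin and 7.53, 8.03 and 6.44 with saline. In these 3 pairs the groups overlapped, with exact permutation p-values from 0.6 to 1, and over all 8 pairs the adjusted values ran from 0.4 to 1. The coding sequences of the 8 pairs shared 60.2 to 77.5% of aligned bases, with no identical run longer than 23 bases.

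**Figure D4:**
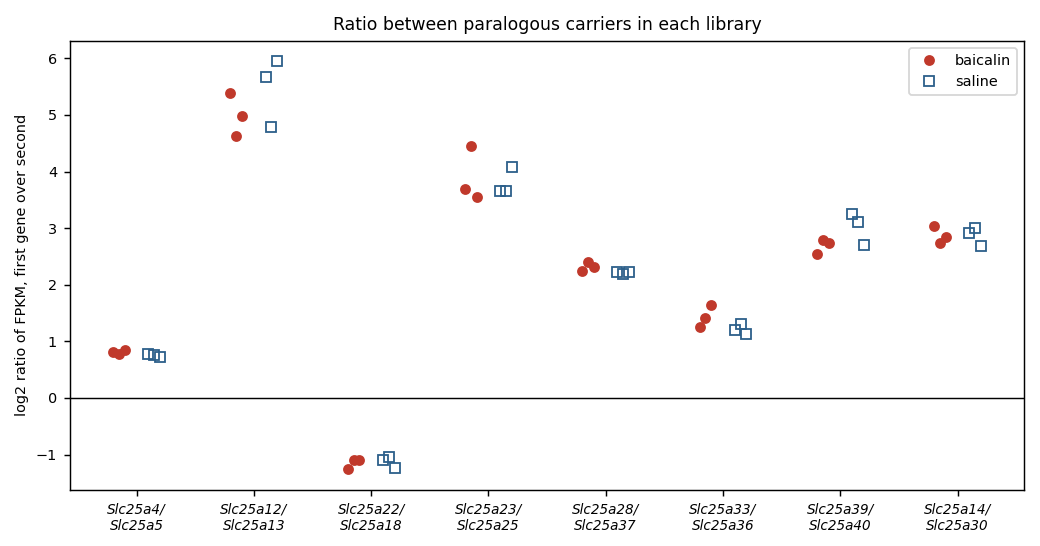
Log2 ratio of FPKM between 8 pairs of paralogous carriers in each library, baicalin as filled circles left of saline as open squares. Baicalin and saline separate, by small amounts, in Slc25a4/Slc25a5 and Slc25a28/Slc25a37 and overlap in the other 6 pairs.

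Genes that work beside the carriers were read from the same fit, and 0 of them had an adjusted p under 0.05 in edgeR. Among all genes tested, 11.8% had an unadjusted p under 0.05, with 6.34% higher and 5.46% lower with baicalin. The median log2 difference of all genes was -0.00062, and -0.078 with libraries scaled to equal summed FPKM. Mitochondrial carriers under other names (Ucp2, Mtch1 and Mtch2 were tested) had a median log2 difference of 0.10, or 0.019 with libraries scaled to equal summed FPKM and 0.028 to 0.16 when a library was left out (lowest without saline 2, highest without saline 3), with 0 of 3 at an unadjusted p under 0.05. Of 13 genes of the TIM22 import route 1 had an unadjusted p under 0.05 (Timm8b, a small chaperone of the intermembrane space, 0.25 ± 0.072), and the median was 0.016, or -0.061 under that scaling, -0.013 with a trend in gene length removed and 0.0024 to 0.075 when a library was left out (lowest without baicalin 1, highest without saline 1). Of 14 other metabolite transporters 1 had such a p (Abcb8, -0.23 ± 0.087), and the median was 0.041, or -0.036 under that scaling and 0.020 to 0.052 when a library was left out (lowest without baicalin 3). Enzymes of the NADH shuttles had 2 of 6 (Gpd1, 0.14 ± 0.043, and Mdh1, 0.092 ± 0.038), with a median of 0.079, or 0.0018 under that scaling. Of 9 genes of the calcium uniporter and its partners 3 were positive and 6 negative, and the median was -0.012. It was -0.091 under that scaling, 0.018 once the gene-length trend was taken out, and -0.048 to 0.023 when a library was left out (lowest without saline 3, positive without baicalin 2). Slc8b1, the sodium/calcium exchanger of mitochondria, was lower with such a p (-0.50 ± 0.18).

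ATP synthase, which consumes what the ADP/ATP and phosphate carriers bring in, had 12 of 15 subunit genes with positive log2 differences, 6 of them with an unadjusted p under 0.05 and 0 in the other direction. Among all genes tested 49.8% were positive, and at that p 6.34% were higher and 5.46% lower. The subunit median was 0.10, and 0.069 to 0.14 when a library was left out. With libraries scaled to equal summed FPKM it was 0.022, beside -0.078 over all genes. The smallest p-values were those of Atp5g3 (0.23 ± 0.040) and Atp5j2 (0.22 ± 0.046). Iron-sulfur and haem synthesis genes had 0 of 12 with such a p and a median of -0.0079. This median was -0.086 under that scaling and turned positive, at 0.012 to 0.017, without baicalin 1, baicalin 2, saline 1 or saline 3. Of 9 tested regulators of mitochondrial biogenesis 7 were negative, 1 with such a p (Gabpa, a GABP subunit, -0.21 ± 0.069), and the median was -0.084. It was -0.16 under that scaling and -0.14 to -0.023 when a library was left out (lowest without saline 1, highest without baicalin 2). Protein-coding genes of the mitochondrial genome were positive in 12 of 13, 2 with such a p (mt-Co3, 0.26 ± 0.080, and mt-Co2, 0.25 ± 0.087), with a median of 0.10, but -0.054 once a trend with gene length was removed, 0.016 under that scaling and 0.028 to 0.16 when a library was left out (lowest without baicalin 3, highest without baicalin 2).

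**Figure D5:**
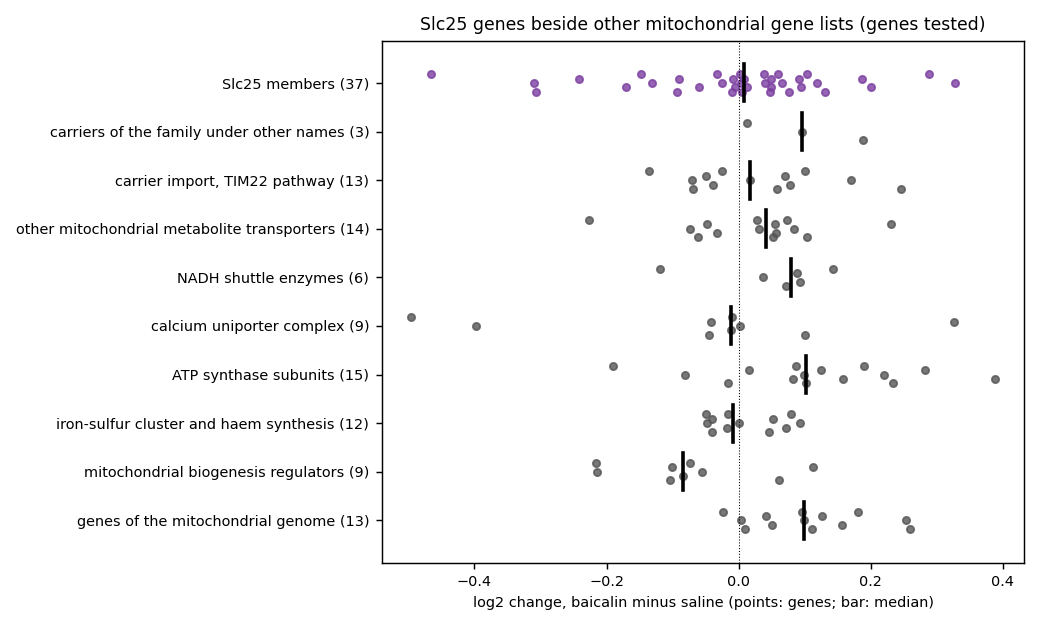
Log2 difference (baicalin minus saline) of every tested gene of the family and of 9 companion lists (points), with the median of each list (bars); numbers of genes tested are in parentheses. The Slc25 median lies at 0.0084 and that of ATP synthase subunits at 0.10. With libraries scaled to equal summed FPKM they lie at -0.072 for Slc25 and 0.022 for ATP synthase subunits, beside -0.078 for all genes (not drawn).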

How the data were processed

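Per the labels' protocols, ribosomal RNA was removed with biotin probes before the 6 hippocampal libraries were made. The authors deposited a table with a whole-number count and an FPKM value per gene and library. The deposited counts were used as they are; their totals differ between libraries, and no source used here says whether they were scaled. FPKM, per the file headers, divides the fragments of a gene by its transcript length and by library size. Build mm10 and the tools HISAT2, StringTie, limma, DESeq2 and bcl2fastq 2.0 are named, without roles, per the submitters' processing notes. A gene's counts and FPKM values kept 1 ratio after library scaling (SD of the log2 ratio 0.00112 over 12236 genes), so whether the counts were tallied from reads or derived from StringTie output is unknown. A further 12 per-sample columns were not used.

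The test covered the 13153 genes that averaged 1 FPKM or more over 6 libraries. It was edgeR 4.0.16 (R 4.3.3) with TMM scaling, a quasi-likelihood fit of all 6 libraries without covariates, Benjamini-Hochberg adjustment over all genes and a threshold of 0.05. Standard errors were taken from the F statistic. Paralog ratios of FPKM were compared by exact two-sided permutation of the 6 libraries. The procedure was tested on simulated data with 50 changed genes at each size. Of changes of 1.3-fold 0% passed the adjusted threshold, of 1.5-fold 28%, of 2-fold 74% and of 4-fold 94%. The simulated data gave 102 calls over all genes, beside 6 in the real fit. More calls make the Benjamini-Hochberg threshold easier to pass, so these rates can overstate what would be found here. The absence of a call therefore does not show that a small difference is absent. Exons, transcripts and overlaps came from GENCODE mouse release 21 (all 47 identifiers matched, 40 with the same coordinates) and promoter windows from RefSeq; coordinates are the deposited ones. Alternatives covered scaling, filters, DESeq2 1.42.0, limma 3.58.1, pseudocounts, gene length, the mitochondrial genome, a replicate block and each library left out.

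Values in every library are given for the 10 tested members with the smallest p, the 10 most abundant and both members of each paralog pair; other members are given by log2 difference or range. 1 tested member and 1 companion gene are counted but not reported here. Companion genes named for their p have the smallest p among the reported genes of their list. The members and lists were chosen with earlier results of these data known. Libraries of a group differed beyond counting noise, so none was treated as the same library deposited again; this does not show that they are separate animals. Intervals cover the spread between libraries only.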

Additional observations from a re-analysis of the deposited data

How the results depend on the processing

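In all 19 alternatives 0 members passed the adjusted threshold; the smallest adjusted p was 0.140 (Slc25a20, DESeq2). Over all genes, 6 passed in the fit reported, 218 with DESeq2, 0 with the replicate block and 2 to 39 when a library was left out (39 without baicalin 1, 2 without baicalin 3, 14 without saline 3, 10 without saline 2). Same-numbered libraries had correlations of deviations of 0.091, 0.052 and -0.024, beside -0.098 to 0.055 for differently numbered ones. With the block 1119 genes had an unadjusted p under 0.05, against 1552 without it. The block also leaves fewer degrees of freedom, so these counts cannot show whether replicate numbers pair the libraries. Members with an unadjusted p under 0.05 numbered 3, 1 with a filter of at least 5 FPKM, which left 24 members, and 1 to 5 when a library was left out (1 without baicalin 1 or saline 1, 5 without saline 3). The median of members was 0.0084, -0.072 with libraries scaled to equal summed FPKM (which moved the median of all genes to -0.078), and -0.0040 to 0.026 when a library was left out. The cause was not tested. Slc25a20 had an unadjusted p under 0.05 in 17 of 18 alternatives, Slc25a39 in 15 of 19 and Slc25a35 in 13 of 18. Of the 19 alternatives 13 refitted the same 6 libraries, so these counts are not independent. When a library was left out, Slc25a39 kept such a p only without baicalin 2 or saline 3, and Slc25a35 only without baicalin 2. Slc25a20 kept it with each library left out and lost it with libraries scaled to equal summed FPKM. With 3 libraries a group, a permutation p cannot fall below 0.1.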

Other observations

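Members differed widely in how much replicates of a group varied. The median coefficient of variation within groups was 6.74% for the 37 tested members and 7.84% for all genes tested. In 13 members it was under 5%, with the lowest value, 2.06%, in Slc25a5. In 6 members it was above 15%: Slc25a26 (36.9%), Slc25a51 (25.3%), Slc25a25 (23.5%), Slc25a35 (18.9%), Slc25a42 (16.8%) and Slc25a45 (15.8%). For Slc25a51 the spread came from saline library 1, at 8.33 FPKM beside 16.6 to 17.5 FPKM in the other 5 libraries. Slc25a51 lies at chr4:45395923-45408766 (mm10, minus strand), and 1.9% of the 50-base stretches of its transcripts occur in other genes' transcripts.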
